A study of Mus musculus with 18 samples.

Results

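The genes described here are 10 components of the TWEAK receptor and of the non-canonical NF-κB pathway, chosen by their current mouse symbols from the 36528 genes counted: the ligand gene Tnfsf12 (TWEAK), the receptor gene Tnfrsf12a (Fn14), the adaptor and ubiquitin ligase genes Traf2, Traf3, Birc2 and Birc3, the kinase genes Map3k14 (NIK) and Chuk (IKKα), and the subunit genes Nfkb2 (p100 and p52) and Relb. Their RNA was measured in 18 RNASeq samples of cultured C57BL/6 mouse renal tubulointerstitial epithelial cells (RPTEC) from a commercial supplier, in 6 groups of 3 samples. At 6 h and again at 24 h, cells had received the vehicle (DMSO), recombinant mouse TWEAK at 100 ng/mL, or TWEAK at that dose together with the NIK inhibitor NIK SMI1 at 3 μM. No group received NIK SMI1 without TWEAK, and the 3 samples of a treatment are not stated to come from separate animals or cell preparations, so SDs and p-values cover the spread between cultured samples, which may be technical. The question addressed was how much of the response of these pathway genes to TWEAK persisted with NIK SMI1 at this dose.

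In resting cells, TRAF3 and TRAF2 bring NIK to the ubiquitin ligases cIAP1 and cIAP2, encoded by Birc2 and Birc3, which mark it for degradation, so that NIK is controlled mainly as a protein. Binding of TWEAK to Fn14 draws the TRAF and cIAP proteins to the receptor. NIK then accumulates and activates IKKα, which leads to processing of p100 to p52, the partner of RelB in the nucleus. TWEAK also activates the canonical pathway, in which RelA and p50 drive genes that include several parts of both pathways, and the sequencing measured RNA, not the proteins or their processing.

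All 10 genes passed the filter on low counts, with 88 (Birc3) to 26209 (Nfkb2) reads per sample out of 18040966 to 51956444 counted reads. Levels of single genes are given as CPM, counts scaled to 1000000 counted reads per sample, with the SD over 3 samples. Fold changes, their standard errors and p-values came from the quasi-likelihood test of edgeR over the 15521 genes tested, with TMM factors for library size and Benjamini-Hochberg adjustment over all of them. A gene was called higher or lower at an adjusted p below 0.05. With 3 samples on each side, p = 0.1 is the smallest value an exact permutation test can give, so the separation of the samples is given beside the model's result. TMM factors lay between 0.964 and 0.987 at 6 h and between 1.02 and 1.03 at 24 h. Tests and group orders across time points therefore used the TMM scale or the fit. Marker levels and RPKM values hold no TMM factor, so their ranges over both time points are not corrected in this way.

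The cells carried epithelial RNA: of 11 tubular epithelial markers 10 passed the filter, with a summed level of 7399 to 9281 CPM per sample, led by Krt18 at 3493 to 4939 CPM. Of the proximal tubule markers listed, Lrp2 (0.0574 to 0.586 CPM) and Slc34a1 (at 0 in 15 of 18 samples) were near or at 0. Cubn was low but found in every sample, at 1.93 to 4.64 CPM. The cells are therefore called RPTEC here only as the labels do. Fibroblast markers summed to 9.44 to 13.6 CPM, led by Col1a1 at 8.77 to 13.3 CPM, and endothelial markers to 0.195 to 0.813 CPM. Leukocyte markers summed to 18.4 to 26.0 CPM, almost all from Cd68 and Csf1r, with Cd3e at 0 in all samples. This sum was highest with TWEAK at 24 h, at 24.3 to 26.0 CPM against 21.2 to 22.3 CPM with vehicle, and its part in the results below was not tested. In bulk samples, fewer cells of a type and less RNA per cell cannot be told apart. Reads of the pancreatic islet hormone genes Ins1, Ins2 and Gcg were found in 14 libraries, with 85 to 533 reads of Ins2. In the other 4, namely TWEAK sample 2 and the 3 samples with NIK SMI1 at 24 h, these 3 genes were at 0, while the sum of 8 islet markers was 0.214 CPM in that TWEAK sample and 0.0451 to 0.0870 CPM in the samples with NIK SMI1.

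TWEAK raised 7 of the 10 genes at 6 h and the same 7 at 24 h: Birc3, Nfkb2, Birc2, Relb, Map3k14, Traf2 and Traf3. Of all tested genes, 11.7% were called higher at 6 h and 18.3% at 24 h. The members were chosen with earlier results of these data known, so such shares describe the background and do not test the list. No member was called lower at 6 h, where 12.0% of all genes were, and Tnfsf12 and Chuk were called lower at 24 h, where 20.7% were. Over the 10 genes, the median log2 fold change was 0.75 at 6 h and 0.89 at 24 h, while over all tested genes it was −0.0034 and −0.0055. In each of the 7 raised genes, every TWEAK sample lay above every vehicle sample of the same time point, a separation seen upwards in 15.8% of all genes at 6 h and 24.0% at 24 h.

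With NIK SMI1 added to TWEAK, 4 members were called lower at 6 h (Birc3, Birc2, Nfkb2 and Relb), against 5.70% of all genes, and 6 at 24 h (these 4, Traf2 and Traf3), against 8.29%. Map3k14 was called higher at both time points and Tnfrsf12a at 6 h, so that 2 members were higher at 6 h and 1 at 24 h, where 5.34% and 10.2% of all genes were. The 4 and the 6 lowered members were also those whose samples with NIK SMI1 all lay below the TWEAK samples, which 12.1% of all genes did at 6 h and 15.0% at 24 h. With the inhibitor, the members' median log2 fold change was −0.07 at 6 h and −0.18 at 24 h, beside 0.0029 and 0.0083 for all genes. Against vehicle, the 7 members that TWEAK raised were still called higher with TWEAK and NIK SMI1 at both time points, as 7.23% of all genes were at 6 h and 8.07% at 24 h, and no member was called lower, as 6.70% and 9.83% of all genes were. At 24 h the comparison of both agents with vehicle set samples without islet hormone reads against samples with them. What this added was not tested. The plot of CPM by sample shows the 3 comparisons gene by gene.

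**Figure D1:**
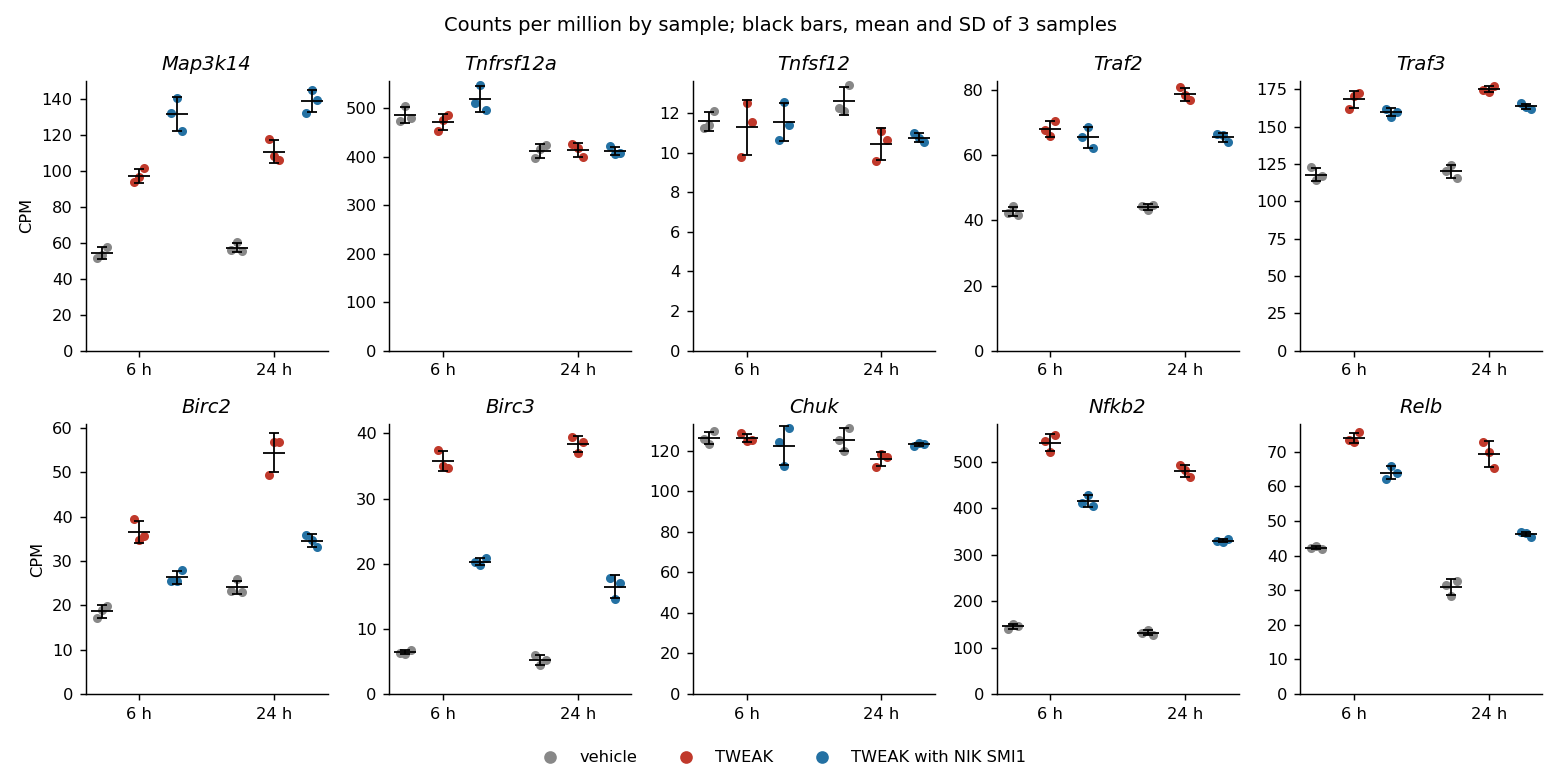
Level of each of the 10 genes in CPM (y axis, from 0) in the single samples (points) of the 6 groups, with the mean and SD of 3 samples in black, at 6 h and 24 h. TWEAK samples (red) of 7 genes stand above the vehicle samples (grey); samples with NIK SMI1 (blue) lie between them for Birc2, Birc3, Nfkb2 and Relb and above the TWEAK samples for Map3k14.

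Tnfrsf12a encodes Fn14, the receptor of TWEAK, and was the most abundant member per unit of exonic length. Its level at 6 h was 474, 505 and 479.6 CPM in the 3 vehicle samples, 454, 475 and 487 CPM with TWEAK and 512, 549 and 496 CPM with TWEAK and NIK SMI1. At 24 h the values were 397, 416 and 424 CPM, 426, 417 and 399 CPM and 422, 407 and 407 CPM in the same order. Vehicle and TWEAK samples overlapped at both time points. The log2 fold change with TWEAK was −0.03 at 6 h (95% interval from −0.11 to 0.05) and 0.01 at 24 h (from −0.07 to 0.09). The largest difference for Tnfrsf12a was between the time points: with vehicle it was lower at 24 h than at 6 h, at a log2 fold change of −0.30 (SE 0.04, adjusted p = 6.82e-07), and the 3 groups of 24 h all lay below the 3 groups of 6 h on the TMM scale. With NIK SMI1 it was called higher than with TWEAK at 6 h (log2 fold change 0.13, SE 0.04, adjusted p = 0.0269), but this call was lost without TWEAK sample 1 (0.10) or 2 (0.13) and without NIK SMI1 sample 1 (0.14) or 2 (0.09), with adjusted p up to 0.23. The gene Hcfc1r1 overlaps Tnfrsf12a in RefSeq and had 93129 reads in all samples together beside 282633 for Tnfrsf12a; how reads of the shared stretch were assigned is not given in the sources used here.

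Tnfsf12, the gene of TWEAK itself, was among the weakly expressed members. At 24 h it measured 12.3, 12.1 and 13.4 CPM with vehicle and 9.56, 11.1 and 10.7 CPM with TWEAK, a log2 fold change of −0.26 (SE 0.09, adjusted p = 0.0213) with no overlap of the samples. The call was lost without vehicle sample 3 (−0.22, adjusted p = 0.0895) and without TWEAK sample 1 (−0.21, adjusted p = 0.0812). At 6 h the samples overlapped, with 11.2, 11.4 and 12.1 CPM with vehicle, 9.77, 12.5 and 11.6 CPM with TWEAK and a log2 fold change of −0.02 (95% interval from −0.19 to 0.15). NIK SMI1 gave 0.01 against TWEAK at 6 h (from −0.17 to 0.19) and 0.03 at 24 h (from −0.15 to 0.20). The symbol shares its locus with the read-through gene Tnfsfm13, which had 7447 reads in all samples beside 7114 for Tnfsf12 and measured 12.97 ± 0.458 CPM with vehicle and 10.7 ± 0.405 CPM with TWEAK at 24 h (SD, n = 3). The counts of Tnfsf12 are uncertain where reads fit both genes. The ligand gene Tnfsf13 was also called lower with TWEAK at 24 h (log2 fold change −0.49, SE 0.13, edgeR adjusted p = 0.00385). It measured 7.04 ± 0.149 CPM with vehicle and 5.15 ± 0.806 CPM with TWEAK, and was not called at 6 h. Recombinant TWEAK was added as protein and leaves no reads of its own.

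Map3k14, the gene of NIK, is the target of the inhibitor, and it was the only member that TWEAK raised and that stood higher still with NIK SMI1 at both time points. At 6 h it measured 51.4, 53.1 and 57.9 CPM with vehicle, 94.0, 96.5 and 102 CPM with TWEAK and 132, 141 and 122 CPM with TWEAK and NIK SMI1. At 24 h the values were 56.2, 60.2 and 55.6 CPM, 118, 109 and 106 CPM and 132, 145 and 139.6 CPM. The 3 groups of each time point did not overlap, and vehicle was lowest and TWEAK with NIK SMI1 highest. TWEAK raised Map3k14 by a log2 fold change of 0.86 at 6 h (SE 0.05, adjusted p = 1.13e-12) and 0.95 at 24 h (SE 0.06, adjusted p = 1.26e-13). NIK SMI1 added 0.43 to this at 6 h (SE 0.05, adjusted p = 1.3e-06) and 0.33 at 24 h (SE 0.05, adjusted p = 3.38e-05), which left the RNA 2.44-fold and 2.42-fold above vehicle. The added rise remained at 0.35 (adjusted p = 0.000134) when the 24 h comparison was restricted to the 4 libraries without islet hormone reads, a fit in which TWEAK sample 2 stood alone and was assumed to vary like the other groups. The RefSeq long non-coding gene Gm34823 overlaps Map3k14 and had 1465 reads in all samples beside 61108 for Map3k14.

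Chuk encodes IKKα, the kinase that NIK activates. It varied least among the members, with group means from 113 to 130 CPM on the TMM scale. Vehicle samples had 126, 123 and 129 CPM and TWEAK samples 129, 125 and 125 CPM at 6 h, where the groups overlapped and the log2 fold change was 0.01 (95% interval from −0.07 to 0.10). At 24 h the values were 125, 119.7 and 131 CPM with vehicle, 112, 118 and 117 CPM with TWEAK and 122, 124 and 123 CPM with TWEAK and NIK SMI1. The decrease with TWEAK at 24 h was called at a log2 fold change of −0.11 (SE 0.04, adjusted p = 0.0347) and was lost without vehicle sample 1 (−0.11) or 3 (−0.08) and without TWEAK sample 1 (−0.09) or 3 (−0.12). The difference with NIK SMI1 at 24 h was 0.08 (from −0.0029 to 0.17), although the 3 samples with the inhibitor all lay above the 3 TWEAK samples.

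Traf2 and Traf3 encode the adaptors that hold NIK at the cIAP ligases, and both rose with TWEAK by less than 2-fold. Traf2 measured 42.3, 44.5 and 41.6 CPM with vehicle, 67.9, 65.8 and 70.6 CPM with TWEAK and 65.6, 68.8 and 62.4 CPM with TWEAK and NIK SMI1 at 6 h, and 44.5, 43.2 and 44.6 CPM, 80.8, 78.5 and 77.0 CPM and 66.5, 66.4 and 64.0 CPM at 24 h. The samples with NIK SMI1 overlapped the TWEAK samples at 6 h and lay below all of them at 24 h. For Traf2, TWEAK gave a log2 fold change of 0.68 at 6 h (SE 0.04, adjusted p = 1.03e-12) and 0.83 at 24 h (SE 0.04, adjusted p = 1.64e-14). With NIK SMI1 it was −0.06 at 6 h (95% interval from −0.15 to 0.03), while at 24 h Traf2 fell by 0.27 on the log2 scale (SE 0.04, adjusted p = 2.94e-05). For Traf3 the 6 h values were 123, 114 and 117 CPM with vehicle, 162, 171 and 172 CPM with TWEAK and 162, 157 and 160.0 CPM with TWEAK and NIK SMI1, the latter groups overlapping. At 24 h the vehicle samples had 121, 124 and 116 CPM, the TWEAK samples 175, 174 and 177 CPM and the samples with NIK SMI1 166, 163 and 162 CPM. Its rise with TWEAK was 0.53 at 6 h (SE 0.04) and 0.54 at 24 h (SE 0.04), with adjusted p = 7.76e-12 and 3.2e-12. The decrease of Traf3 with NIK SMI1 at 24 h was called at −0.10 (SE 0.04, adjusted p = 0.0489) and was lost in each of the 6 fits that left out 1 of the samples compared, with values between −0.12 and −0.09, and also at −0.09 without the libraries that held islet hormone reads.

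Birc3, which encodes cIAP2, had the largest fold change of the members in both directions. Its RNA measured 6.35, 6.12 and 6.81 CPM with vehicle, 37.5, 35.0 and 34.6 CPM with TWEAK and 20.2, 19.8 and 20.8 CPM with TWEAK and NIK SMI1 at 6 h. At 24 h it measured 5.99, 4.46 and 5.22 CPM, 39.5, 37.01 and 38.7 CPM and 17.8, 14.6 and 17.1 CPM. No 2 groups of a time point overlapped, and the samples with the inhibitor stood between the other groups. TWEAK raised Birc3 5.57-fold at 6 h (log2 fold change 2.48, SE 0.08, adjusted p = 1.49e-19) and 7.11-fold at 24 h (2.83, SE 0.08, adjusted p = 3.88e-20), the 42nd and the 58th largest rise among all 15521 genes. NIK SMI1 lowered it 1.77-fold at 6 h (log2 fold change −0.82, SE 0.07, adjusted p = 1.39e-09) and 2.33-fold at 24 h (−1.22, SE 0.07, adjusted p = 2.03e-13).

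Birc2, the neighbouring paralog that encodes cIAP1, was the more abundant of the pair with vehicle at 6 h, at 4.27 against 2.03 RPKM (reads scaled by exonic length and by the total of the sample), and its fold changes were smaller. It measured 17.0, 18.9 and 19.8 CPM with vehicle, 39.4, 34.6 and 35.5 CPM with TWEAK and 25.5, 25.5 and 28.0 CPM with TWEAK and NIK SMI1 at 6 h, and 23.2, 25.8 and 23.0 CPM, 49.4, 56.9 and 56.9 CPM and 35.9, 34.8 and 33.1 CPM at 24 h. As for Birc3, the groups of each time point did not overlap and the samples with the inhibitor were in the middle. TWEAK changed it by 0.98 at 6 h (SE 0.06, adjusted p = 2.02e-12) and 1.19 at 24 h (SE 0.06, adjusted p = 1.75e-14) on the log2 scale, and NIK SMI1 by −0.48 (SE 0.06, adjusted p = 5.36e-06) and −0.66 (SE 0.06, adjusted p = 2.71e-09). Uniquely aligned reads were counted, so reads that fit both paralogs equally would be missing from both.

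Nfkb2 encodes p100, the precursor that NIK signalling converts to p52, and had the largest rise in CPM of the members. At 6 h it measured 139.6, 151 and 147 CPM with vehicle, 545, 521 and 557 CPM with TWEAK and 412, 429 and 404 CPM with TWEAK and NIK SMI1. At 24 h the values were 132, 137 and 126 CPM, 493, 482 and 468 CPM and 329, 327 and 333 CPM. The groups of a time point were fully separated, with the inhibitor samples nearer to TWEAK than to vehicle. TWEAK raised Nfkb2 3.74-fold at 6 h (log2 fold change 1.90, SE 0.04, adjusted p = 1.23e-23) and 3.65-fold at 24 h (1.87, SE 0.04, adjusted p = 1.2e-23). NIK SMI1 gave a log2 fold change of −0.39 at 6 h (SE 0.04, adjusted p = 9.49e-09) and −0.55 at 24 h (SE 0.04, adjusted p = 5.81e-12). Nfkb2 overlaps 4833438C02Rik (9842 reads in all samples) and Psd (7203 reads) in RefSeq, beside 217031 reads of its own.

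Relb encodes RelB, the partner of p52. Vehicle samples had 42.1, 42.7 and 41.9 CPM at 6 h, TWEAK samples 73.4, 73.0 and 75.6 CPM and samples with NIK SMI1 62.1, 65.9 and 63.8 CPM, and at 24 h the values were 31.6, 28.4 and 32.6 CPM, 72.8, 70.0 and 65.3 CPM and 46.7, 46.5 and 45.5 CPM. The 3 groups were separated at each time point, but the samples with the inhibitor were near the TWEAK samples at 6 h and well below them at 24 h. The rise with TWEAK was 0.82 at 6 h (SE 0.05, adjusted p = 4.87e-14) and 1.16 at 24 h (SE 0.05, adjusted p = 9.58e-17) on the log2 scale, while NIK SMI1 gave −0.22 (SE 0.05, adjusted p = 0.00129) and −0.58 (SE 0.05, adjusted p = 1.7e-10). The plot of fold changes sets the members side by side.

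**Figure D2:**
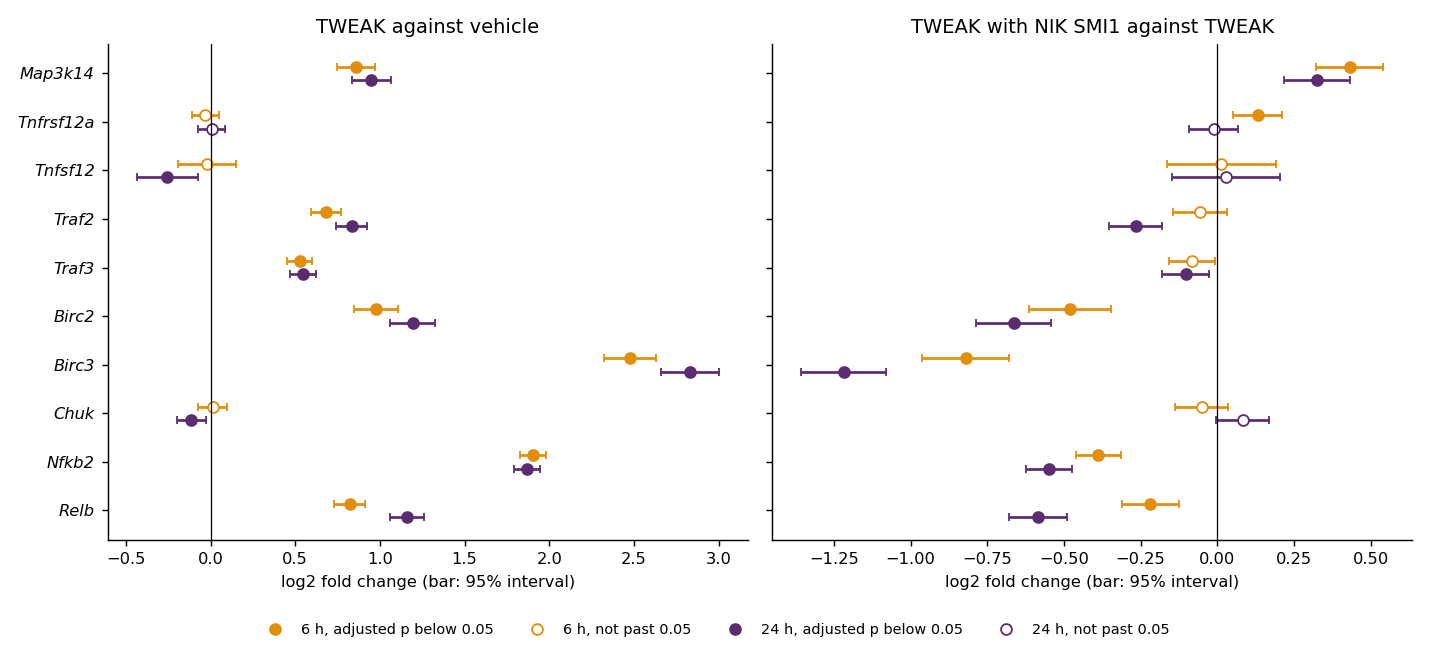
Log2 fold change (x axis) of each member with TWEAK against vehicle (left) and with TWEAK and NIK SMI1 against TWEAK (right) at 6 h and 24 h; bars are 95% intervals of the edgeR fit and filled points passed an adjusted p of 0.05. Birc3 and Nfkb2 lie farthest to the right with TWEAK, and Map3k14 lies right of 0 in both panels.

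The sequences before the transcription starts of Nfkb2, Traf3 and Birc3 are shown because all 3 genes rose with TWEAK and their promoter windows differed in κB matches. RefSeq windows on GRCm38.p6, a later build than the one the reads were aligned to, were found for 8 of the 10 members by symbol, 11 windows in all, each read here as the 250 bases before the start. They were searched on both strands for the 10-base κB consensus, the sequence that NF-κB dimers bind. Capitals mark the matches, and sequences run 5′ to 3′ on the strand of the gene.
Nfkb2 window 1, chr19:46304487-46304736, plus strand: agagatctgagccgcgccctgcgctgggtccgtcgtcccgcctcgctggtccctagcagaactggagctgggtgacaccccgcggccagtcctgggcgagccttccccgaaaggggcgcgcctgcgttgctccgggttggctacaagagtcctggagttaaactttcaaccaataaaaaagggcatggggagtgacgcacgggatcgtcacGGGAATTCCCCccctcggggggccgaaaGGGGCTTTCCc
Nfkb2 window 3, chr19:46305680-46305929, plus strand: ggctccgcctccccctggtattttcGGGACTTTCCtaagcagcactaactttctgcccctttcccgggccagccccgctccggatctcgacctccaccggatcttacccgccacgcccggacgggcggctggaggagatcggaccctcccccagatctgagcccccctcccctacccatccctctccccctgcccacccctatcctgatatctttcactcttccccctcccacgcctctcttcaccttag
Traf3, chr12:111166120-111166369, plus strand: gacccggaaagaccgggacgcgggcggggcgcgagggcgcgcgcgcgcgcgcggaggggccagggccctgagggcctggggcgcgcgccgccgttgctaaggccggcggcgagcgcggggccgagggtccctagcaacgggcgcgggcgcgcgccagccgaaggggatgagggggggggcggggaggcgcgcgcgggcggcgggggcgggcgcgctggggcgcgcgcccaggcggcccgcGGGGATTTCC
Birc3, chr9:7873171-7873420, minus strand: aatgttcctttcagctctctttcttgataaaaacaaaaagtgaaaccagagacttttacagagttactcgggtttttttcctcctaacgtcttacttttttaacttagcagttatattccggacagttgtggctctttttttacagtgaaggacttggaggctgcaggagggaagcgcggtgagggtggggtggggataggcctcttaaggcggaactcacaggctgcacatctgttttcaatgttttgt
A match was present in 4 of the 11 windows, the 3 of Nfkb2 and the single one of Traf3, and in 7.25% of the 32851 windows of all genes in the RefSeq table. Windows of the same gene are not independent, and the share of genes with a match was not computed. Nfkb2 window 1 held GGGAATTCCC 39 bases before the start, GGAATTCCCC 38 bases before it, which overlaps the former, and GGGGCTTTCC 11 bases before it. Window 3 held GGGACTTTCC 225 bases before its start, and Traf3 held GGGGATTTCC 10 bases before the start. The remaining Nfkb2 window, which is not printed and overlaps window 3, held GGAATGTCCC 236 bases before its start. The window of Birc3, the member with the largest fold change, held no match, nor did those of Birc2, Traf2, Map3k14, Tnfrsf12a and Chuk. A match describes the letters only and was not tested as a binding site, and the absence of one says nothing of sequence outside these windows.

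The share of the TWEAK rise that was left with NIK SMI1 was computed for the 6 members that TWEAK raised by more than 1.5-fold, as the difference in mean CPM from vehicle with both agents over that with TWEAK. Only the share of Map3k14 stood apart at both time points. On the CPM scale, that of Relb was near Nfkb2 at 6 h and nearer to the cIAP genes at 24 h. For Map3k14 the rise was not reduced but reached 179% ± 21.5 of the TWEAK rise at 6 h and 153% ± 11.9 at 24 h (SD over the 3 samples with NIK SMI1). This SD holds the means of the vehicle and TWEAK groups fixed and so leaves out their spread. No group received NIK SMI1 alone. For every member, an effect of the inhibitor apart from TWEAK therefore cannot be told apart from a change in the TWEAK rise. Traf2 kept 90.1% ± 12.8 at 6 h and 62.0% ± 4.05 at 24 h, and Nfkb2 kept 68.1% ± 3.17 and 56.7% ± 0.943. The rise of Relb was left at 68.2% ± 5.97 and 40.0% ± 1.72. On the CPM scale the means of the cIAP genes were lowest, with 43.2% ± 8.31 and 34.7% ± 4.64 left for Birc2 and 47.4% ± 1.73 and 33.9% ± 5.16 for Birc3. No rise was removed in full. The paper chose the dose of 3 μM for an inhibition of NIK in mouse cells that is near full but not full. The shares therefore belong to this dose and not to an absence of NIK activity. What any remaining activity added to them was not tested. At 24 h all vehicle samples held reads of islet hormone genes and no sample with NIK SMI1 did. At 6 h all samples held such reads. What this difference between libraries added to the 24 h shares was not tested. On the log2 scale the share left was larger for every one of these members but Map3k14, for which it was smaller, and at 24 h it was 57.4% for Birc3 and 50.1% for Relb, so that the order of these genes changed with the scale. Map3k14 is plotted above the line of 100% in the plot of the remaining rise.

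**Figure D3:**
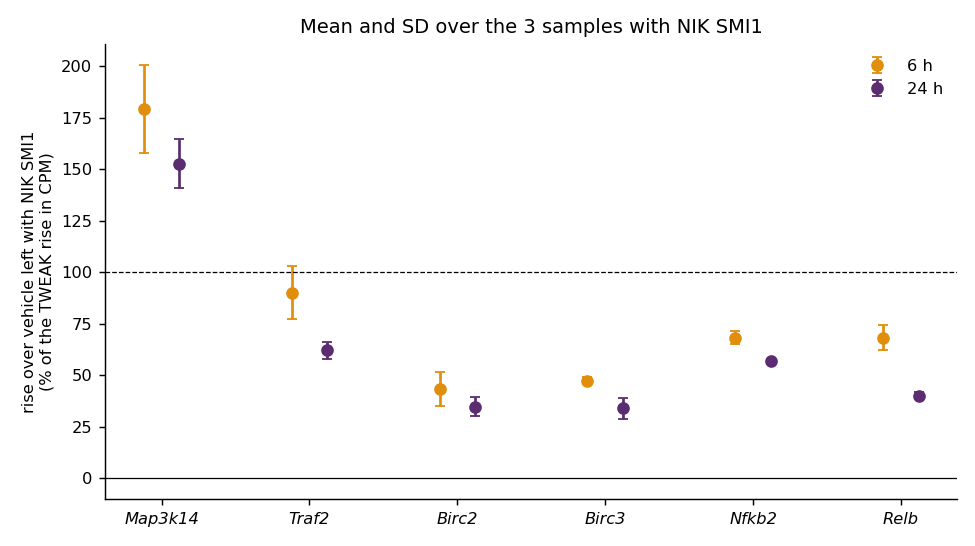
Share of the TWEAK rise in CPM left with NIK SMI1 (y axis, in percent) for the 6 members that TWEAK raised by more than 1.5-fold, at 6 h and 24 h; bars are the SD over the 3 samples with NIK SMI1. Map3k14 lies above 100% (dashed line), Nfkb2 at 68.1% and 56.7%, and Birc2 and Birc3 below 50%.

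The time points were compared in 3 ways. With vehicle alone, Relb (log2 fold change −0.51, SE 0.05, adjusted p = 6.22e-09), Birc3 (−0.33), Tnfrsf12a (−0.30) and Nfkb2 (−0.21) were lower at 24 h than at 6 h, 4 members where 14.4% of all genes were called lower, and Birc2 was higher (0.29), where 15.5% were. The Birc3 call was lost without vehicle sample 3 of 6 h (−0.28, adjusted p = 0.0695) or sample 2 of 24 h (−0.24, adjusted p = 0.0868). A larger log2 fold change with TWEAK at 24 h than at 6 h was found for Relb, by 0.34 (SE 0.07, adjusted p = 0.00101), the 1 member called in this contrast, where 3.24% of all genes were called higher and 5.67% lower. Beside it, the mean level of Relb on the TMM scale was 76.2 CPM at 6 h and 67.7 CPM at 24 h with TWEAK, and 43.1 CPM and 30.1 CPM with vehicle, so the larger fold at 24 h stood over a lower vehicle level and not over a higher TWEAK level. For Birc3 the same contrast was 0.35 (SE 0.12, adjusted p = 0.0629). It was called without vehicle sample 1 of 24 h (0.50, adjusted p = 0.0187). For Nfkb2 the contrast was −0.04 (95% interval from −0.14 to 0.07).

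NIK SMI1 lowered 3 members further at 24 h than at 6 h on the log2 scale, with a difference of −0.40 for Birc3 (SE 0.10, adjusted p = 0.0151), −0.37 for Relb (SE 0.06, adjusted p = 0.000942) and −0.21 for Traf2 (SE 0.06, adjusted p = 0.0436), where 1.62% of all genes were called lower. No member was called in the other direction, where 3.11% of all genes were. The Relb call held in the 12 fits that left out 1 sample. That of Birc3 was lost without NIK SMI1 sample 2 of 24 h (−0.32, adjusted p = 0.057), and that of Traf2 in 10 of 12 such fits, with values between −0.25 and −0.17. The count of 3 became 5 without NIK SMI1 sample 3 of 6 h and 1 without NIK SMI1 sample 2 of 24 h. For Nfkb2 the contrast was −0.16 (SE 0.05, adjusted p = 0.0659) and for Map3k14 −0.11 (95% interval from −0.26 to 0.05).

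Ordered over all 6 groups on the TMM scale, the lowest mean of Birc2, Birc3, Nfkb2 and Relb was in a vehicle group and the highest in a TWEAK group. For Birc2 and Nfkb2 the samples of all 5 pairs of neighbouring groups were apart. Relb with NIK SMI1 at 24 h (45.0 ± 0.612 CPM) lay next to vehicle at 6 h (43.1 ± 0.627 CPM) in this order, with the samples just apart. For Map3k14 only 2 of the 5 steps were free of overlap, from the vehicle groups to the TWEAK groups and from these to the groups with NIK SMI1, and the time points overlapped within each treatment. None of the 5 steps was free of overlap for Tnfsf12, and 1 was for Tnfrsf12a and for Chuk.

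Levels of different genes were compared by the RPKM values that the authors deposited. Tnfrsf12a had a mean of 449.8 RPKM over the 18 samples, above 99.6% of the tested genes, followed by Nfkb2 at 68.8 RPKM and Chuk at 33.5 RPKM. Map3k14 (22.6 RPKM), Relb (20.0 RPKM), Traf3 (19.2 RPKM) and Traf2 (11.6 RPKM) were in the middle. Birc2 (7.42 RPKM), Tnfsf12 (6.44 RPKM) and Birc3 (6.42 RPKM) were lowest. Receptor RNA thus exceeded that of the ligand in every group. In RPKM, without TMM factors, the ratio of highest to lowest group mean ranged from 1.10 for Chuk to 7.34 for Birc3. With TWEAK, Nfkb2 passed Chuk, which it did not in the vehicle groups.

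**Figure D4:**
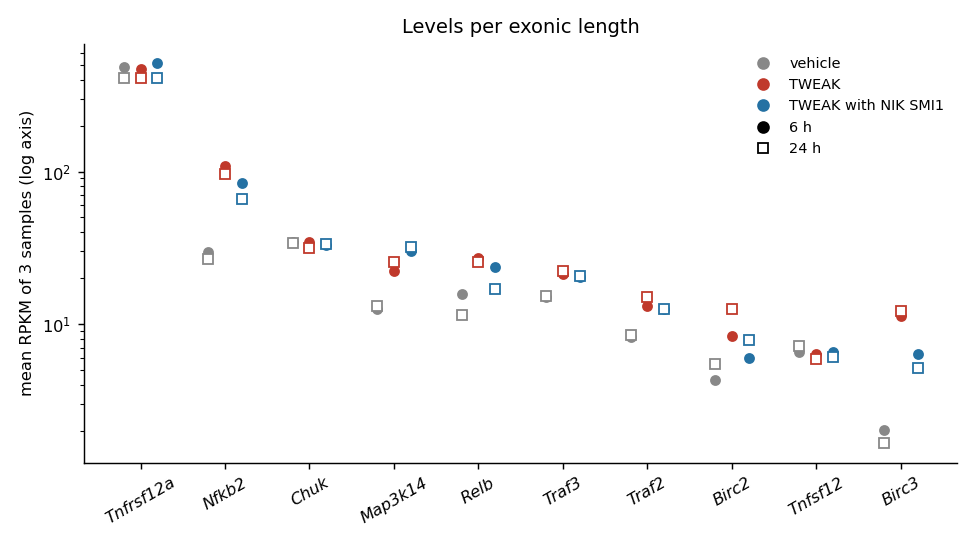
Mean RPKM of 3 samples (y axis, logarithmic) for each member in the 6 groups, ordered by the mean over all 18 samples; circles are 6 h and squares 24 h. Tnfrsf12a lies at 409 to 515 RPKM in every group, and Birc3 spans the widest range, from 1.64 to 12.1 RPKM.

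The genes whose pattern was most like that of a member were found by Pearson's r of log2 CPM over the 18 samples, which fall into 6 groups that share their treatment, so r describes the groups rather than 18 independent points. For Nfkb2 they were Pdgfb (r = 0.995), Shroom3 (0.988) and Il23a (0.988), and for Birc3 Arhgef3 (0.991), Nfkbie (0.989) and Cx3cl1 (0.988). For Relb they were Rnf19b (0.989), Abtb2 (0.985) and Csf2 (0.985). Traf2 was closest to Sh3bp4 (0.986), Klhl8 (0.976) and Nfkbie (0.975), Traf3 to Il23a (0.983), Shroom3 (0.976) and Resf1 (0.973), and Birc2 to Ppp1r12b (0.980), Sprr1a (0.978) and Calcb (0.976). Map3k14 was closest to Gm34823 (0.976), the overlapping gene named above with which reads may be shared, then to Sh3bp5 (0.922) and Glis2 (0.902). The genes nearest to Tnfrsf12a were Vasp (0.983), Cdipt (0.982) and Lad1 (0.980), those nearest to Chuk were Prrg4 (0.923), Zfp800 (0.918) and Synj2bp (0.913), and those nearest to Tnfsf12 were 1700016K19Rik (0.842), Mgst2 (0.800) and Hif3a (0.797). Among the members themselves, Nfkb2 was closest to Birc3 (0.978) and Traf3 (0.977), whereas Map3k14 and Relb had r = 0.652.

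Of 41 other genes of the canonical and non-canonical pathways, 28 passed the filter, and the remaining 13, which include the ligand genes Tnfsf13b, Tnfsf11, Tnfsf14, Lta and Cd40lg, had at most 8 reads in any sample. This list too was chosen with earlier results of these data known. TWEAK raised 15 of the 28 and lowered 2 at 6 h, where 11.7% of all genes were called higher and 12.0% lower, and raised 14 and lowered 5 at 24 h, where 18.3% and 20.7% were. The genes listed as NF-κB subunits and inhibitors, Bcl3 among them, were raised in 6 of 7 cases at 6 h and in 7 of 7 at 24 h. The largest rises were those of Traf1, an adaptor that binds TRAF2, from 1.15 ± 0.238 to 57.5 ± 2.47 CPM at 24 h (SD, n = 3; log2 fold change 5.68, and 4.36 at 6 h), of Nfkbie (2.93; 2.47) and of Nfkbia (2.77; 2.56), which encode inhibitors that retain NF-κB in the cytoplasm. Of the kinases of the canonical complex, Ikbkb was called higher (0.30 at 6 h and 0.29 at 24 h) and Ikbkg was not. Of the 10 adaptor and ubiquitin enzyme genes, 2 were raised and 2 lowered at each time point, which is not read as a result beside the shares of all genes just given.

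With NIK SMI1, 9 of the 28 genes were lower than with TWEAK at 6 h and none was higher, where 5.70% and 5.34% of all genes were. At 24 h 14 were lower and 2 higher, where 8.29% and 10.2% of all genes were, so that the 2 were no more than the share of all genes. The largest decreases were in Traf1 (−1.91 at 6 h and −2.43 at 24 h on the log2 scale), Nfkbia (−1.14 and −1.49), Cd40 at 6 h (−0.78), a receptor that also signals through NIK, and Nfkbie at 24 h (−1.29). All 7 genes listed as NF-κB subunits and inhibitors were called lower at 24 h, and 4 of them at 6 h. Among them at 24 h were Rela (−0.23), Nfkb1 (−0.36) and Rel, which was close to the threshold (−0.42, edgeR adjusted p = 0.0481). The genes called higher at 24 h were Xiap (0.23) and Otud7b (0.11), the latter encoding a deubiquitinase that acts on TRAF3. Against vehicle, 12 of the 28 genes were still higher with both agents at 6 h and 11 at 24 h, beside 7.23% and 8.07% of all genes, and 2 were lower at each, beside 6.70% and 9.83%.

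**Figure D5:**
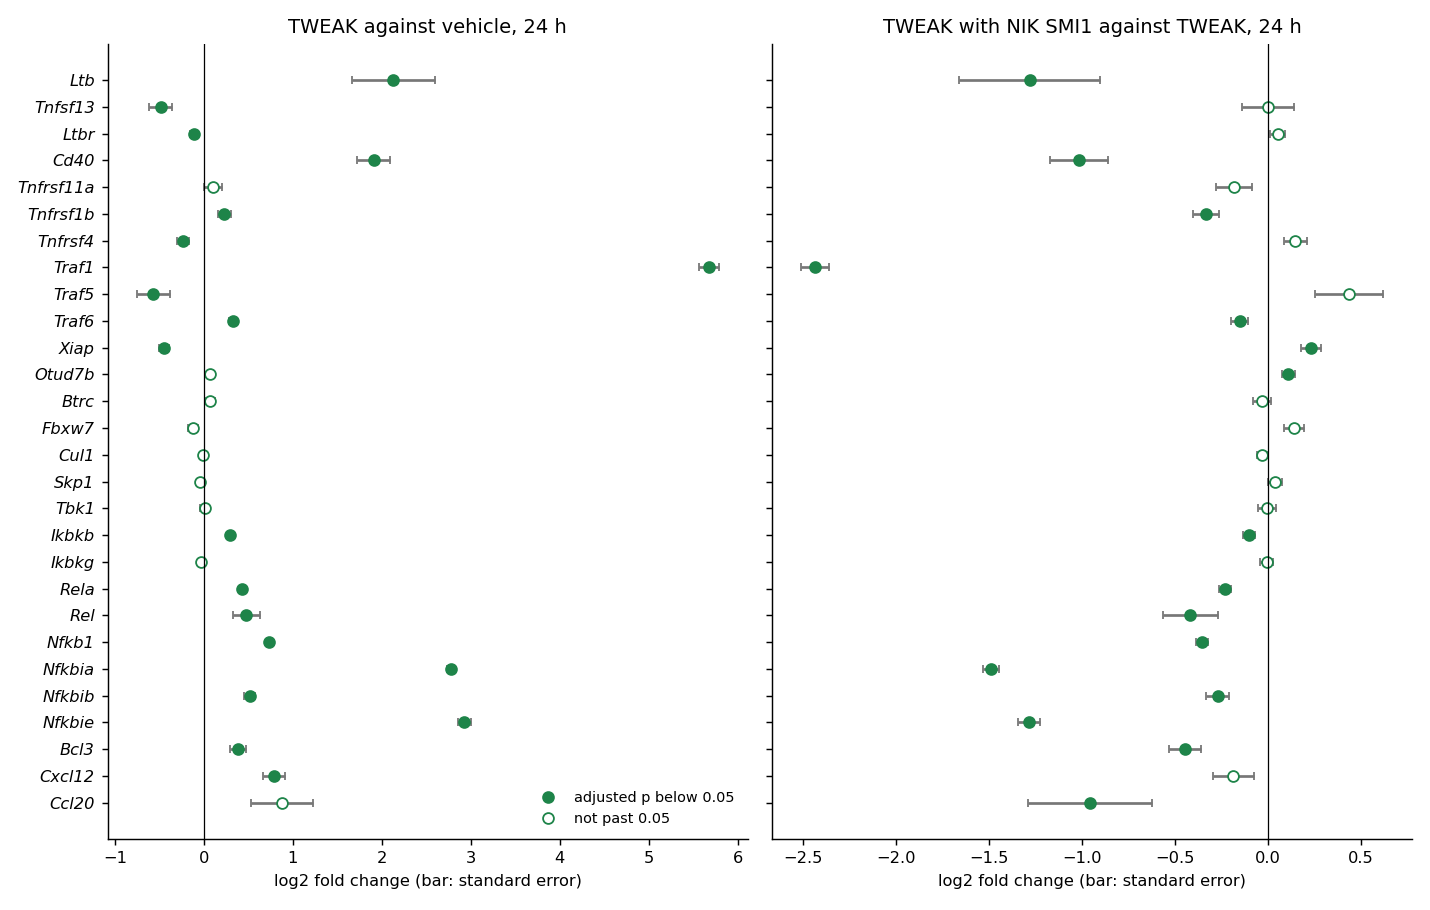
Log2 fold change (x axis) at 24 h of the 28 tested genes among 41 other pathway genes, with TWEAK against vehicle (left) and with TWEAK and NIK SMI1 against TWEAK (right); bars are standard errors and filled points passed an adjusted p of 0.05. Traf1, Nfkbie and Nfkbia lie farthest right on the left panel, and Traf1 and Nfkbia farthest left on the right panel.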

How the data were processed

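RNA of 18 samples of cultured mouse RPTEC was sequenced after TruSeq RNA v2 preparation, a kit that does not mark the strand. According to the methods, the authors aligned reads to NCBI build 37 with GSNAP through HTSeqGenie. The deposited counts give, without normalization, how many reads aligned only to the exons of a gene, and the deposited RPKM values scale them by exonic length and by the total of the sample. The labels and the methods differ on the sequencer, the read length and the input RNA.

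Counts were summed per sample (18040966 to 51956444, median 35374254; 3 reads equal 0.0577 to 0.166 CPM), and 31049 of 36528 identifiers were matched to RefSeq symbols. Genes with more than 10 reads in at least 4 samples were tested in edgeR 4.0.16 under R 4.3.3 (TMM, estimateDisp, glmQLFit, glmQLFTest), with all 18 samples fitted as 6 groups and Benjamini-Hochberg adjustment over the 15521 genes. The common biological coefficient of variation was 0.0404. Differences between time points were tested as interaction contrasts. RPKM entered no test. Scripts were tested on simulated counts.

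The text covers all 10 members in every comparison, for each member the 3 other genes with the highest Pearson's r of log2 CPM over the samples, and of a list of 41 other pathway genes the counts and the 3 largest called changes. Further members of that list were named after their values were seen. Members, lists and the removal of libraries with islet hormone reads were chosen with earlier results of these data known. Alternatives were DESeq2 1.42.0, its size factors in edgeR, no filter, filterByExpr, each time point alone, leaving out each sample, and leaving out libraries with islet hormone reads. Upstream windows came from RefSeq on GRCm38.p6; no coordinates were converted.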

Additional observations from a re-analysis of the deposited data

Results flagged for a closer look

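A result is listed here because the size of an effect differed between 6 h and 24 h in a test of the difference itself. For Relb, the log2 fold change with TWEAK was larger at 24 h than at 6 h by 0.34 (SE 0.07, edgeR adjusted p = 0.00101). The log2 fold change of Relb with NIK SMI1 differed in the other direction, by −0.37 at 24 h against 6 h (SE 0.06, adjusted p = 0.000942). At both time points each Relb value with the inhibitor was below each TWEAK value. Birc3 differed in the same contrast by −0.40 (SE 0.10, adjusted p = 0.0151), a call that was lost without NIK SMI1 sample 2 of 24 h. Traf2 differed by −0.21 (SE 0.06, adjusted p = 0.0436), which was lost in 10 of 12 fits without 1 sample. At 24 h and not at 6 h, all samples with NIK SMI1 had no reads of the islet hormone genes Ins1, Ins2 and Gcg. Within the 4 libraries of 24 h without such reads, TWEAK alone was represented by 1 sample. In that fit the log2 fold changes with the inhibitor were −0.60 for Relb, −1.17 for Birc3 and −0.26 for Traf2. The contrast between the time points could not be fitted without the libraries that held islet hormone reads.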

How the results depend on the processing

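Of 90 single-gene results, 61 kept their direction and their side of the threshold in every alternative. Of 1090 single-gene values under an alternative, 1013 did so, 34 lost and 9 gained a call, and 34 changed sign. No call that changed sign was past the threshold in the values reported. The counts of called members stayed within 1.5-fold in 105 of 109 cases. The number of members whose TWEAK effect differed between 24 h and 6 h was 1 and became 2 with DESeq2, with a range of 1 to 2 when single samples were left out, and the number for the NIK SMI1 effect was 3, with a range of 1 to 5. Why these moved was not tested. On log2(CPM + 0.1) in place of CPM, the share of the TWEAK rise left with NIK SMI1 was 151% and 134% for Map3k14 at 6 h and 24 h, 51.6% and 44.6% for Birc2, 67.0% and 57.4% for Birc3, 79.8% and 70.9% for Nfkb2, 68.4% for Traf2 at 24 h and 50.1% for Relb at 24 h, since a log scale raises shares below 100% and lowers those above it. Leaving out single samples moved the share at 24 h from 55.7% to 57.7% for Nfkb2 and from 37.9% to 41.8% for Relb.

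Values near 0 changed sign. Without a filter, Tnfrsf12a with TWEAK and NIK SMI1 against vehicle at 24 h was 0.0015, and without the libraries with islet hormone reads, Tnfsf12 with NIK SMI1 against TWEAK at 24 h was −0.0458. When single samples were left out, the log2 fold change with TWEAK at 6 h ranged from −0.00892 to 0.0248 for Chuk, from −0.0586 to 0.00429 for Tnfrsf12a and from −0.104 to 0.0745 for Tnfsf12, and at 24 h from −0.0202 to 0.0320 for Tnfrsf12a. With NIK SMI1 against TWEAK it ranged from −0.0921 to 0.00508 for Chuk and from −0.0822 to 0.0977 for Tnfsf12 at 6 h, and from −0.0362 to 0.0114 for Tnfrsf12a and from −0.0167 to 0.0703 for Tnfsf12 at 24 h. With NIK SMI1 against vehicle it ranged from −0.0808 to 0.0164 for Chuk and from −0.0787 to 0.0587 for Tnfsf12 at 6 h, and from −0.0317 to 0.0147 for Tnfrsf12a at 24 h. Between time points with vehicle it ranged from −0.0219 to 0.0591 for Map3k14, from −0.0472 to 0.00768 for Traf2 and from −0.0627 to 0.000891 for Traf3. The difference of the NIK SMI1 effect between 24 h and 6 h ranged from −0.0691 to 0.110 for Tnfsf12 and from −0.0437 to 0.0123 for Traf3, and that of the TWEAK effect from −0.0210 to 0.0426 for Traf3.

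No paired analysis was possible because the labels give no replicate numbers. The fit without the libraries that held islet hormone reads was made for NIK SMI1 against TWEAK at 24 h only, since the other comparisons then lose a whole group, where 6 members were called in place of 7, and time points fitted alone give no comparison across them. Depth limits Birc3 and Tnfsf12 most, the members with the fewest reads.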
